A study of Mus musculus with 6 samples.

Results

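The enzymes that make and balance deoxynucleotides were followed through RNA-Seq of endothelial cells isolated from lung (iLECs) of mouse pups at P7, with and without the gene Atp6ap2, which encodes the (pro)renin receptor, an accessory protein of the V-ATPase. The set has 9 genes of the 24972 gene symbols in the table: Dctd, Tyms, Rrm1, Rrm2, Tk1, Dut, Dck, Dtymk and Samhd1. The enzymes were listed by function, with earlier results of these data known, so a count over them is not independent evidence. Dctd was chosen by its rise in the mutant libraries of this same comparison, so its difference between genotypes is a description and carries no test. The question was whether Dctd follows the enzymes of S phase from library to library.

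3 of the 6 libraries were controls (Atp6ap2 fl/Y) and 3 were Atp6ap2 iECKO (Atp6ap2 fl/Y with Cdh5-CreERT2). All pups received tamoxifen (100 μg) on P1 to P3, and the strain label was C57BL/6 for all, while the study's methods describe a mixed CD1 and C57BL/6 background. Cdh5-CreERT2 is active in endothelial cells, so other cells of the lung keep Atp6ap2. The controls carried no Cre, so deletion of the gene and presence of active Cre cannot be told apart. Cells were taken with magnetic beads that carried an antibody to CD31, and endothelial markers were abundant: Cdh5, which encodes VE-cadherin, lay between 76599 and 110813 normalized counts in all 6. A normalized count is the authors' estimated read count after scaling between libraries. The normalized counts summed to between 26243878 and 28725799 per library, but the reads behind a single value are unknown.

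Atp6ap2 had 7490 normalized counts in control 1, 5815 in control 2 and 5681 in control 3. In the iECKO libraries it had 4220, 2336 and 1982 in replicates 1, 2 and 3. The groups did not overlap, and the log2 fold change was -1.22 (SE 0.26, adjusted P = 0.0306, limma). The adjusted P was 0.0782, 0.0628 and 0.0857 without control 1, 2 or 3, 0.103 and 0.0986 without iECKO 2 or 3, and 0.0917 without the mean-variance trend, so the call was lost in those 6 fits, while the log2 fold change stayed negative. The libraries labelled fl/Y did not all look male. Xist, the RNA of the inactive X chromosome, had 37704 and 44402 normalized counts in controls 1 and 2 and 39442 and 47487 in iECKO 1 and 3, but 31.7 in control 3 and 19.3 in iECKO 2. The Y-linked gene Ddx3y had 4554 and 4656 in control 3 and iECKO 2 and at most 172.9 in the other libraries. The 4 libraries with high Xist therefore go against a literal reading of the label, in equal number in each genotype. The paper states that both groups held males and females, the females being Atp6ap2 fl/fl. Nothing in the labels says how many pups gave each library.

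Deoxynucleotides reach DNA by a few joined routes. Ribonucleotide reductase, a large subunit (Rrm1) with a small one (Rrm2, or Rrm2b outside S phase), reduces ribonucleotides. Dctd deaminates dCMP to dUMP, Dut supplies dUMP by cleaving dUTP, and Tyms methylates dUMP to dTMP. Tk1 and Dck salvage nucleosides by phosphorylating them, Dtymk carries dTMP to dTDP, and Samhd1 breaks dNTPs down. Transcripts of Rrm2, Tyms and Tk1 are well known to peak as cells replicate DNA. Tyms, Rrm1, Rrm2, Tk1, Dut and Dtymk are called the S-phase enzymes here.

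To set Dctd beside S-phase enzymes, the stretch before the start site is shown for Dctd and for the 3 S-phase enzymes that held a searched motif. Each is the last 120 bases before a RefSeq start site (GRCm38.p6), 5′ to 3′ in the direction of the gene. Capitals mark CCAAT, or its complement ATTGG, and a 7-letter word made of an E2F-type word (TTTCCCGC, TTTCGCGC, TTTGCCGC or TTTGGCGC) without its leading T.
Dctd, chr8:48109838-48109957 (+ strand): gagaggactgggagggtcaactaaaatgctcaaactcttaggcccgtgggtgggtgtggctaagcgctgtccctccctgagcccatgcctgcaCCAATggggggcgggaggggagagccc
Rrm1, chr7:102441575-102441694 (+ strand): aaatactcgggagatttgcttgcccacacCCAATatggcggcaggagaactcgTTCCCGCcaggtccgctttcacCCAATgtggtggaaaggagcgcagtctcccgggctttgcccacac
Rrm2, chr12:24708134-24708253 (+ strand): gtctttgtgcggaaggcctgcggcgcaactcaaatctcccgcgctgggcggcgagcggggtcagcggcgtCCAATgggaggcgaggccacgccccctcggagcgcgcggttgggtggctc
Dtymk, chr1:93801935-93802054 (minus strand): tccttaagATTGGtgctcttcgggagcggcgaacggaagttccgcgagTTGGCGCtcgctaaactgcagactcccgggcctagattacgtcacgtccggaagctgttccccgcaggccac

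The full E2F-type words, searched on both strands like the others, were in none of the 9 genes within 250 bases before a start site, and in 1.86% of 32851 RefSeq promoters. The 7-letter words, which the longer words contain, were added after that search. They were found before Rrm1 (67 to 61 bases upstream), before Dtymk (72 to 66 bases upstream) and before Rrm2 (235 to 229 bases upstream on the other strand, outside the stretch shown), and in 7.89% of promoters. CCAAT was found before Rrm1 at 2 places, and once each before Rrm2, Dtymk and Dctd, and in 33.8% of promoters. Counted by gene, at any start site, the shares were 2.16% for the full words, 9.01% for the 7-letter words and 37.5% for CCAAT. RefSeq gives Dctd 3 start sites. The CCAAT lies 27 to 23 bases before the site shown and 82 to 78 bases before the next, and none lies before the site at chr8:48099092. A match is a description of letters and not of binding.

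Dctd (chr8:48099092-48153233, + strand; coordinates are GRCm38, GENCODE) had 28.7 normalized counts in control 1, 59.0 in control 2 and 46.0 in control 3. It had 132.3, 172.6 and 233.5 in iECKO 1, 2 and 3. Every iECKO library lay above every control, and the mean went from 44.6 ± 15.2 to 179.5 ± 51.0 (SD, n = 3 each). The log2 fold change, taken like all of those that follow on the log2(value + 1) scale, was 2.01 (SE 0.33). Between the libraries with high Xist, 28.7 and 59.0 stood against 132.3 and 233.5. Between the pair without it, 46.0 stood against 172.6. Dctd is the least abundant of the 9 genes, so its values carry the most counting error.

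Of the 8 other enzymes, 6 were higher in iECKO at an adjusted P below 0.05 and none was lower (limma, Benjamini-Hochberg over 14456 genes). Of all genes tested, 3.28% were called higher and 4.97% lower. Every iECKO library lay above every control for 7 of the 8, all but Samhd1, and for 14.7% of all genes. Unadjusted P was below 0.05 for 7 of the 8 and for 23.9% of all genes. In the 15 alternative fits it was below 0.05 for 7 of the 8 each time, and for 17.1% to 27.2% of all genes. The adjusted calls were less steady: none of the 8 was called without the mean-variance trend, nor without control 3, iECKO 2 or iECKO 3. Without iECKO 1 only Rrm1 was called, and without control 1 only Rrm1 and Dut. With Xist presence as a covariate 4 were called (Rrm1, Rrm2, Tk1 and Dck).

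**Figure D1:**
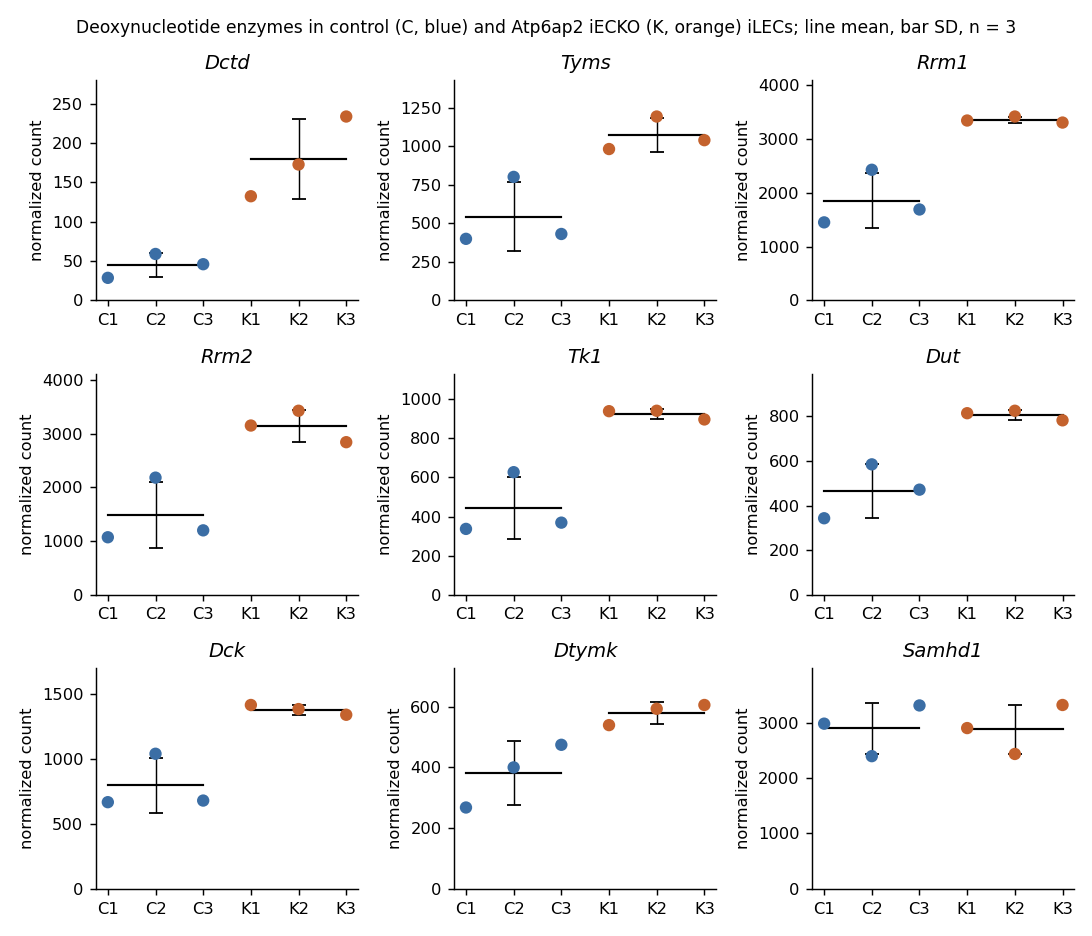
Normalized counts of the 9 enzymes in each control (C1 to C3) and Atp6ap2 iECKO (K1 to K3) library, each panel on its own linear axis from 0; lines are means and bars SD (n = 3). The groups are apart for all but Samhd1, and C2 is the highest control for 7 of the 9.

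Rrm1 and Rrm2 rose, and Rrm2b did not pass the test. Rrm1 (chr7:102441695-102469771, + strand) had 1450.5, 2428 and 1690 normalized counts in controls 1, 2 and 3, and 3343, 3417 and 3305 in iECKO 1, 2 and 3. The iECKO libraries were within 1.03-fold of each other, while the highest control was 1.67 times the lowest. The log2 fold change was 0.89 (SE 0.17, adjusted P = 0.0232, limma). Rrm2 (chr12:24708241-24714146, + strand) had 1069, 2179 and 1198 in the controls and 3149, 3424 and 2839 in the iECKO libraries. Control 2 stood well above the other controls but below each iECKO library, and the log2 fold change was 1.15 (SE 0.24, adjusted P = 0.0299, limma). Rrm2b, the p53-inducible small subunit used outside S phase, had 702.5, 503.8 and 548.9 against 637.1, 591.9 and 588.6. Its groups overlapped, with a log2 fold change of 0.06 (SE 0.14, adjusted P = 0.828, limma).

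Of the enzymes on the way to dTTP, Tyms and Dut rose and Dtymk did not pass the test. Tyms (chr5:30058202-30073617, minus strand) had 399.5, 801 and 431 normalized counts in the controls and 982, 1193 and 1039 in iECKO. Its log2 fold change of 1.05 (SE 0.25, adjusted P = 0.042, limma) lay closest to the threshold among the 6 called, and reads could be shared with its processed pseudogene Tyms-ps. Dut (chr2:125247190-125258608, + strand), which also keeps uracil out of DNA, had 343, 585 and 471 against 814, 825 and 782. Its iECKO libraries were nearly level, and it rose by 0.82 on the log2 scale (SE 0.18, adjusted P = 0.0354, limma). Dtymk (chr1:93792576-93801934, minus strand) had 268, 400 and 475 against 539, 593 and 606. The groups did not overlap, but the log2 fold change of 0.64 (SE 0.20) missed the threshold (adjusted P = 0.0999, limma).

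Both cytosolic salvage kinases rose. Tk1 (chr11:117815526-117826092, minus strand), the cytosolic thymidine kinase, had 337, 627 and 369 normalized counts in the controls and 939, 941 and 897 in iECKO. The log2 fold change was 1.11 (SE 0.22, adjusted P = 0.025, limma). Tk1 shares 83 exon bases with Afmid on the opposite strand, and the counting is not stated to use strand. Dck (chr5:88764996-88783281, + strand), the deoxycytidine kinase, had 667, 1040 and 680 against 1415, 1384 and 1340, a log2 fold change of 0.82 (SE 0.17, adjusted P = 0.0275, limma). The mitochondrial kinases did not pass: Tk2 had a log2 fold change of 0.17 (SE 0.17, adjusted P = 0.604, limma) and Dguok -0.21 (SE 0.20, adjusted P = 0.587, limma).

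Samhd1 (chr2:157097533-157135265, minus strand) stood apart. It had 2980 normalized counts in control 1, 2394 in control 2 and 3309 in control 3, and 2901, 2434 and 3317 in iECKO 1, 2 and 3. The groups overlapped, and the 95% interval of the log2 difference ran from -0.35 to 0.34 (adjusted P = 0.991, limma). In both genotypes replicate 3 was highest and replicate 2 lowest. Samhd1 is abundant in myeloid cells, and the summed normalized counts of 12 leukocyte markers were also lowest in replicate 2 of each genotype, at 9706, 5532 and 9498 in the controls and 11058, 4543 and 12889 in iECKO. None of the 12 was called, their median log2 fold change was 0.36, and the most abundant was Lyz2, a lysozyme of myeloid cells. What leukocyte RNA contributes to Samhd1 was not tested.

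Per kilobase of principal transcript, Samhd1 had the highest control level (737 ± 118 normalized counts per kb, SD, n = 3), next to Rrm2 at 676 ± 277, and these did not differ beyond their spread. Rrm1 followed at 464 ± 127, Dtymk at 380 ± 104, Tk1 at 308 ± 110, Dck at 258 ± 68.7, Dut at 239 ± 62.0 and Tyms at 172 ± 70.6. Each of these neighbours was within the spread of the next. Dctd was far below, at 21.3 ± 7.26. In iECKO the level per kb was highest for Rrm2 (1431 ± 133), then Rrm1 (839 ± 14.3) and Samhd1 (735 ± 113), which did not differ from Rrm1 beyond its spread. Tk1 (643 ± 17.4), Dtymk (578 ± 35.1), Dck (448 ± 12.3), Dut (414 ± 11.5) and Tyms (339 ± 34.5) followed, and Dctd was still lowest at 85.6 ± 24.3.

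Across the controls, Dctd ranked the libraries as 5 of the 6 S-phase enzymes did. From high to low, the controls ran 2, 3, 1 for Dctd, and also for Tyms, Rrm1, Rrm2, Tk1, Dut and Dck. Dtymk ran 3, 2, 1. The highest control was 2.06 times the lowest for Dctd, 2.04 times for Rrm2, 2.00 times for Tyms and 1.67 times for Rrm1. With 3 libraries a genotype there are too few for a correlation, and a pooled correlation would reflect the genotypes, so none is given.

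Among the iECKO libraries the order differed from Dctd for 5 of the 6 S-phase enzymes. Dctd ran 3, 2, 1, with a highest value 1.76 times the lowest. The 6 S-phase enzymes spanned only 1.03- to 1.22-fold, and Rrm1, Rrm2, Tk1 and Dut were lowest in iECKO 3, where Dctd was highest. Dtymk ran 3, 2, 1 as Dctd did, and Tyms ran 2, 3, 1, so that these were lowest in iECKO 1, like Dctd. As the log2 ratio to its control mean, Dctd was at 1.61, 1.99 and 2.42 in iECKO 1, 2 and 3. The median of the 6 S-phase enzymes was at 0.90, 1.03 and 0.94. Atp6ap2 ran the other way from Dctd among the iECKO libraries, at -0.57, -1.43 and -1.66, an order over 3 libraries that was not tested. Summed fibroblast markers (23992, 20131 and 18605 normalized counts) and mural markers (7146, 5809 and 5626) fell in the same order as Atp6ap2. What RNA of these cells contributes to either order was not tested.

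**Figure D2:**
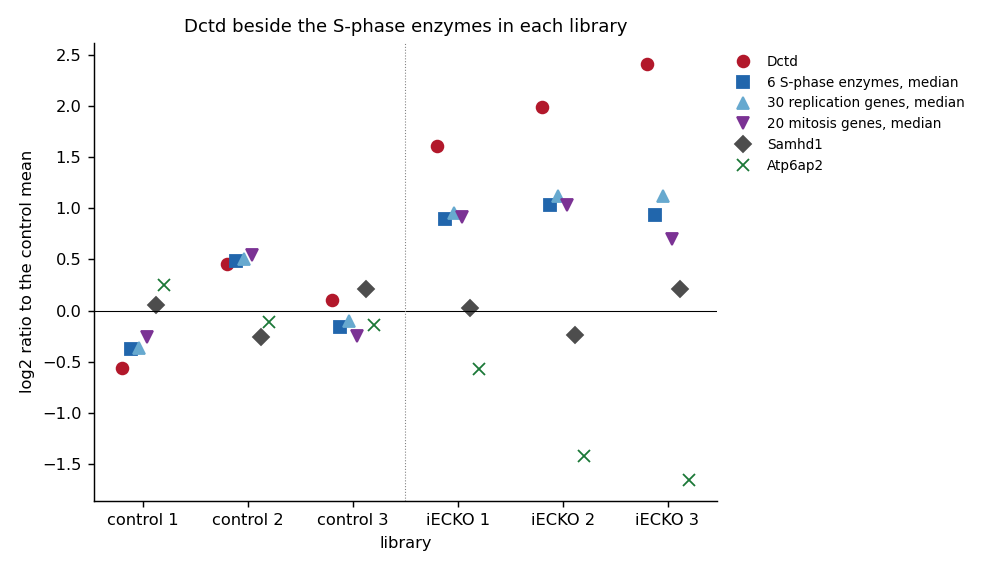
Log2 ratio of each library to the control mean for Dctd, Samhd1, Atp6ap2 and the medians of 6 S-phase enzymes, 30 replication genes and 20 mitosis genes; each point is 1 library value or 1 median over genes. Each gene is set against its own control mean, so a similar average level in the controls follows from the scale. Dctd lies above the S-phase medians in each iECKO library, by the most in iECKO 3. This height contains the rise that chose Dctd and was given no test.

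The ratio of Dctd to these enzymes was therefore not constant. Dctd had 2.68, 2.71 and 3.84 normalized counts per 100 of Rrm2 in the controls, and 4.20, 5.04 and 8.22 in iECKO. Per 100 of the geometric mean of the 6 S-phase enzymes, it had 5.55, 6.39 and 7.13 in the controls and 10.4, 12.7 and 18.4 in iECKO. The groups did not overlap for either ratio, and the mean per 100 of the 6 enzymes went from 6.36 ± 0.793 to 13.8 ± 4.14 (SD, n = 3 each). These ratios contain the rise that chose Dctd and were given no test.

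**Figure D3:**
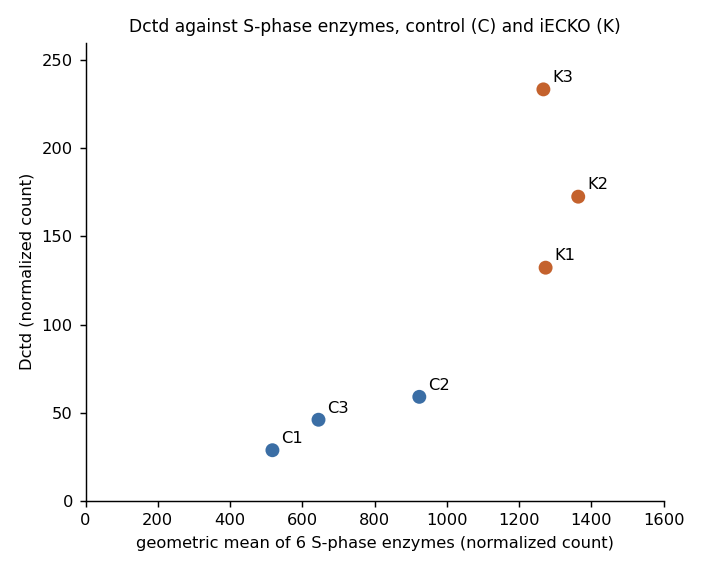
Dctd against the geometric mean of the 6 S-phase enzymes, both in normalized counts on linear axes from 0, with 1 point per library (C1 to C3 control, K1 to K3 iECKO). The controls lie between 517 and 924 on the horizontal axis and the iECKO libraries between 1267 and 1364, where Dctd spreads from 132.3 to 233.5.

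Genes with the most similar course were sought among 11321 genes with a mean of at least 100, by the root mean square difference of the log2 ratio to the control mean over the 6 libraries. For Dctd the nearest were Rps27 at 0.35, Exo1 at 0.41, Dscc1 at 0.42, Ung at 0.45 and Psat1 at 0.47. Rps27 encodes a ribosomal protein, and genes of this kind have near-identical copies, so its value is uncertain. Exo1 is an exonuclease of mismatch repair, Dscc1 belongs to a clamp loader at the fork, Ung removes uracil from DNA, and Psat1 makes serine. Shmt1 came at rank 20, Rrm2 at 75, Tk1 at 77, Tyms at 103, Rrm1 at 179, Dut at 231, Dck at 248, Dtymk at 390 and Samhd1 at 6076. Likeness to Dctd used the contrast that chose it.

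Rrm2 had much closer neighbours. Kntc1, a kinetochore gene, lay at 0.04, Iqgap3 and Gtse1 at 0.06, Traip, a ubiquitin ligase of the replication fork, at 0.07 and Tk1 at 0.08. Tyms was at rank 12, and Dctd at rank 1583 with a difference of 0.69. The difference counts the size of a rise as well as its course. Dctd was chosen by its rise, so its rank here is a description only.

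Of 49 other genes of nucleotide metabolism, all tested, 12 were called higher, 1 lower and 36 neither, where 3.28% of all genes tested were called higher and 4.97% lower. Their median log2 fold change was 0.31, beside 0.00 over all genes tested. The called number, 13 in both directions, was 7 without control 3, 3 without iECKO 2, 2 without iECKO 3 and 5 without the mean-variance trend. Of the enzymes that supply folate-bound carbon units to Tyms, 3 of 3 listed were called higher, but none without iECKO 2 or without iECKO 3. In each of these fits 3 had an unadjusted P below 0.05 (limma), beside 18.5% and 17.1% of all genes. Shmt1, the cytosolic serine hydroxymethyltransferase, had 62.8, 56.0 and 58.7 normalized counts in the controls and 117, 184 and 211 in iECKO (adjusted P = 0.0192, limma). Shmt1 was level in the controls, unlike Dctd, but ran 3, 2, 1 in iECKO as Dctd did. The log2 fold change was 1.47 for Shmt1, 0.94 for Mthfd1 and 0.62 for Shmt2. Shmt1 shares 184 exon bases with Smcr8 on the opposite strand.

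Among the 12 genes that break down or clean nucleotides, only Dctpp1 was called, a share near the 8.25% of all genes called in either direction. Dctpp1, a dCTP pyrophosphatase that yields dCMP, the substrate of Dctd, had 88.8, 96.6 and 89.8 normalized counts in the controls and 199, 227 and 239 in iECKO. Its controls were level and its groups far apart, with a log2 fold change of 1.26 (SE 0.18, adjusted P = 0.0104, limma; 0.0534 without iECKO 3). Cda, which deaminates cytidine and deoxycytidine, had a log2 fold change of 0.38 (SE 0.26, adjusted P = 0.424, limma).

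Of the 8 nucleotide kinases, 2 rose and 1 fell, where 3.28% of all genes tested were called higher and 4.97% lower. The nucleoside diphosphate kinase Nme1 had a log2 fold change of 0.95 (SE 0.13) and Nme2 of 0.45 (SE 0.08). Guk1, the guanylate kinase, had 1843, 2014 and 1915 normalized counts in the controls and 1366, 1357 and 1262 in iECKO, and fell by 0.53 on the log2 scale (SE 0.08, adjusted P = 0.0121, limma). Of these 3 calls, that of Nme1 was the 1 left without iECKO 2, without iECKO 3 or without the mean-variance trend. Of 5 genes of de novo pyrimidine synthesis 1 was called, Cad, which starts it, with a log2 fold change of 0.86 (SE 0.12). The other 4 were not called, where 8.25% of all genes were called in either direction. Of 13 genes of de novo purine synthesis 5 were called higher, beside 3.28% of all genes tested. They were Atic at 0.91, Ppat at 0.83, Gart at 0.68, Adsl at 0.58 and Paics at 0.33. None of the 13 was called without control 3, iECKO 2 or iECKO 3, or without the mean-variance trend. In these fits 8, 6, 6 and 8 had an unadjusted P below 0.05 (limma), beside 21.4%, 18.5%, 17.1% and 22.4% of all genes. Of the 13, 1 was called without control 1 or control 2, and 2 with Xist presence as a covariate. None of the 5 transporters was called (limma). Slc29a2, named after its values were seen, had the greatest log2 fold change among them, 1.09 (SE 0.37, adjusted P = 0.121, limma).

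**Figure D4:**
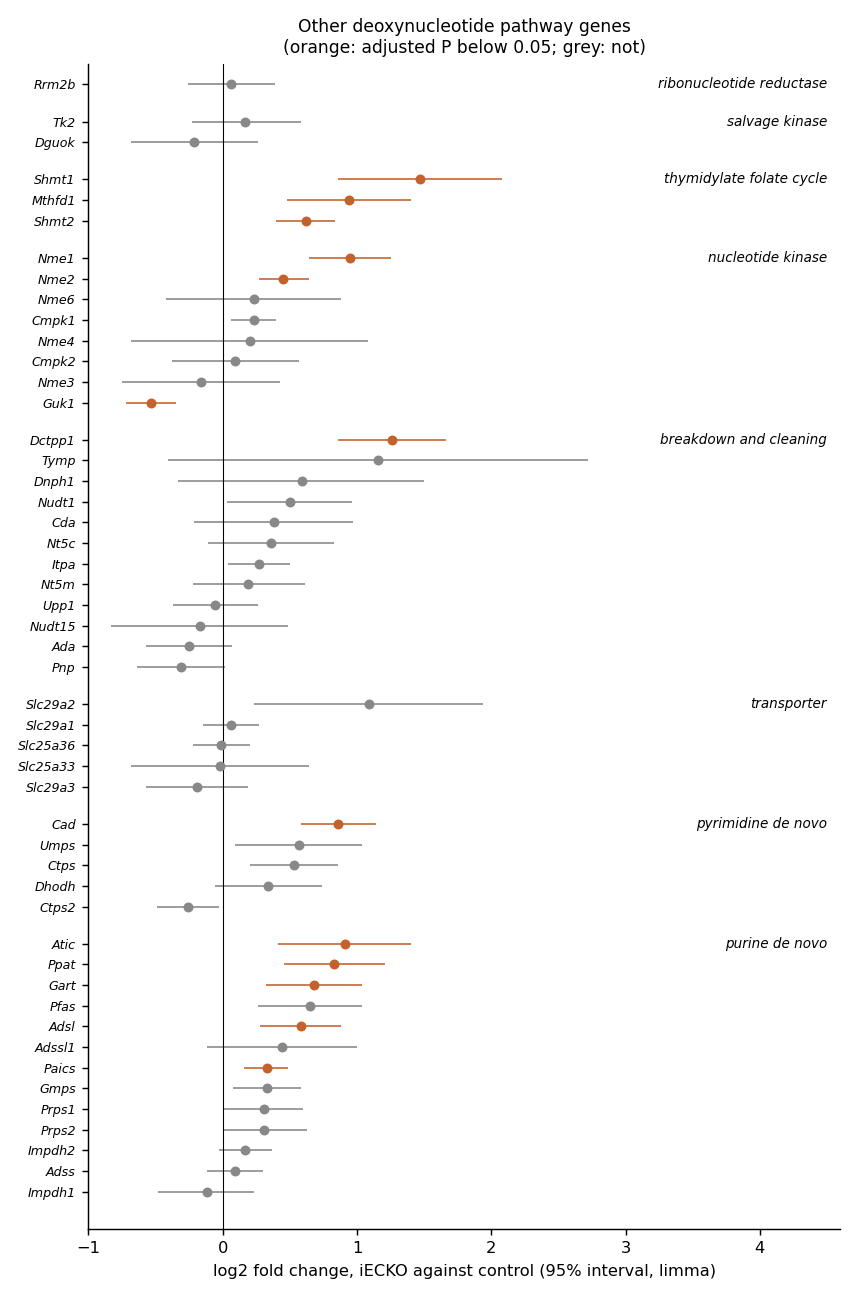
Log2 fold change of iECKO against control for 49 other genes of nucleotide metabolism, grouped by role, with 95% intervals from limma (n = 3 libraries a genotype); orange marks an adjusted P below 0.05 and grey the rest. The 3 folate cycle genes are all orange and right of 0, and Guk1 is the orange gene to the left.

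Genes of the replication machinery were mostly called higher too. Of 30 replication genes, 25 were called higher and none lower, with a median log2 fold change of 1.06. Exo1 rose by 1.53, the polymerase subunit gene Pole by 1.41 and the helicase cofactor gene Cdc45 by 1.40. Of 20 genes of G2 and mitosis, 8 were called higher and none lower, with a median of 0.90. Of all genes tested, 3.28% were called higher. Mitotic Cenpf and Top2a each rose by 1.00, and Aurkb by 0.97. Control 2 was the highest control for all 30 replication genes and all 20 mitosis genes, as it was for Rrm2. The iECKO libraries gave less uniform orders: iECKO 1, where Dctd was lowest, was the lowest for 27 of the 30 replication genes, 3 of the 20 mitosis genes and 2 of the 6 S-phase enzymes. iECKO 3, where Dctd was highest, was the highest for 9, 0 and 1 of them. The counts depended on the libraries: without control 3, iECKO 2 or iECKO 3 the replication genes called fell to 2, 2 and 1 and the mitosis genes to 0 each (at an unadjusted P below 0.05 there were 30, 29 and 29 replication genes and 13, 13 and 19 mitosis genes, limma). Without control 1 or iECKO 1 they were 14 and 15, and 3 and 2, and without control 2 they were 29 and 18. Without the mean-variance trend they were 2 and 0 (30 and 17 at an unadjusted P below 0.05, limma). With Xist presence as a covariate they were 15 and 4. Unadjusted P was below 0.05 (limma) for 21.4%, 18.5% and 17.1% of all genes without control 3, iECKO 2 and iECKO 3. Without the trend it was so for 22.4%. In bulk RNA, more cells in S phase and more of these transcripts per cell cannot be told apart.

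Of 20 p53 targets, 5 were called higher and 1 lower, beside 3.28% and 4.97% of all genes tested, and their median log2 fold change was 0.32. Eda2r had 97.5, 47.3 and 40.1 normalized counts in the controls and 264, 442 and 428 in iECKO, a log2 fold change of 2.67 (SE 0.36, adjusted P = 0.0103, limma). Gdf15 rose by 1.26 and Aen by 0.74, and Btg2 fell by 0.67. Rrm2b, which p53 also induces, did not pass, as given above.

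Markers of other cells also differed between genotypes. Fibroblast markers were called lower in 7 of 9 tested, beside 4.97% of all genes, with a median log2 fold change of -1.50, and the 10 listed summed to 45976, 78096 and 68240 normalized counts in the controls and 23992, 20131 and 18605 in iECKO. Col3a1 was the most abundant, Lum was at 0 in 3 libraries and Dcn between 5.7 and 34.4 in all, and the greatest falls were of Dpt (1.78), Col1a1 (1.62) and Col1a2 (1.60). Mural markers were called lower in 7 of 10, with a median of -1.49 and sums of 13589, 19642 and 20445 against 7146, 5809 and 5626. Pdgfrb was the most abundant, and the greatest falls were of Rgs5 (1.94), Des (1.69) and Notch3 (1.55). Within the controls these sums were lowest in control 1, where Dctd and the S-phase enzymes were lowest too. Their part in the rise of the enzymes was not tested.

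Endothelial markers were called lower in 1 of 10, Tek, the angiopoietin receptor gene, at -0.53, and their median was 0.03. Of all genes tested, 8.25% were called in either direction, so that 1 call in a list of this size is near the background. Epithelial markers had 1 of 10 called, Scgb1a1 at 1.75, and a median of -0.11. They summed to 25209, 22419 and 59958 normalized counts in the controls and 33688, 28032 and 28057 in iECKO, with Sftpc the most abundant, so control 3 stood above the rest. Of 6 erythroid markers tested, Epor was called lower at -0.98. Hba-a1 was the most abundant of the 8 listed, Hbb-bs was at 0 in all libraries, and the sums were 9991, 33395 and 43266 against 9926, 17015 and 19667. None of 5 megakaryocyte markers was called (limma). Gp1ba was the most abundant, and the sums were 3059, 1613 and 996 against 2674, 1173 and 1454.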

How the data were processed

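RNA-Seq libraries (3 control, 3 Atp6ap2 iECKO) were made with TruSeq RNA Library Prep Kit v2. The authors aligned reads to mm10 and quantified genes with BaseSpace tools. They deposited a table whose normalized counts have the unit of a signal: the labels call these deposited values raw counts, but they are not whole, and each library has a median ratio of 1.004 to the geometric mean. edgeR and DESeq2 were therefore not used, and the depth behind a value is unknown.

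Of 24972 genes, the 14456 that reached 10 normalized counts in 3 or more libraries entered a limma fit (version 3.58.1, R 4.3.3) on log2(value + 1), which used a mean-variance trend and only genotype. Benjamini-Hochberg adjustment covered all of them, and the threshold was 0.05. The fit was tested on simulated data. P values set the genotype difference against the spread between these libraries, which limma moderates with the trend over all genes. An exact permutation test of 3 against 3 cannot go below 0.1 and was not used. Symbols were matched to GENCODE (24493, 98.1%). Promoters are from RefSeq, GRCm38.p6.

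The 9 genes and all lists were chosen with earlier results of these data known, and 1 gene of nucleotide metabolism is not reported here. Named genes were the 9, Atp6ap2, every called gene of nucleotide metabolism with Rrm2b, Tk2, Dguok and Cda, up to 3 greatest rises and falls called in each other list (or its most abundant gene), and the 5 nearest profiles to Dctd and to Rrm2. Xist and Ddx3y (a check of the labels), Cdh5, Lum, Dcn, Hbb-bs, the most abundant marker of each cell type and Slc29a2 were named outside this rule, after their values were seen. Alternatives changed scaling, filter, pseudocount, trend, covariates or libraries. Figures were drawn with matplotlib 3.10.9 in Python 3.11.15.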

Additional observations from a re-analysis of the deposited data

How the results depend on the processing

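Across the 15 alternatives the median log2 fold change of the S-phase enzymes lay between 0.79 and 1.23. That of Dctd, whose direction was fixed by the choice of the gene, lay between 1.73 and 2.23. Counts of calls moved more. Without the mean-variance trend limma called 0 of the 8 other enzymes, 5 nucleotide metabolism genes, 2 replication genes and 0 mitosis genes. In that fit 7, 24, 30 and 17 had an unadjusted P below 0.05 (limma), beside 22.4% of all genes. With Xist presence as a covariate 4 enzymes (Rrm1, Rrm2, Tk1 and Dck), 15 replication genes and 4 mitosis genes were called. Leaving out each library in turn gave 0 to 6 enzymes, 2 to 12 nucleotide metabolism genes, 1 to 29 replication genes and 0 to 18 mitosis genes. Over all genes, 474 were called higher with every library, 460 without control 2, 363 without iECKO 1, 274 without control 1, 65 without control 3, 32 without iECKO 2 and 28 without iECKO 3. The cause of these differences was not tested. Both scalings, both pseudocounts and both filters left 6 enzymes called, the same 6. Over 26 single genes and the 15 alternatives, 293 of 390 values kept direction and call, 91 lost the call, 1 gained it and 5 changed sign. The sign of Samhd1, near 0 throughout, turned under library total scaling (0.04) and ran from -0.13 to 0.11 with a library left out; Rrm2b ran from -0.04 to 0.20.

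Replicate numbers are shared between genotypes, but deviations of same-numbered libraries correlated by 0.252, 0.114 and 0.0782, so the numbers were not taken to pair the libraries. With the replicate block 7 enzymes were called, Dtymk being added (adjusted P = 0.0475, limma), and 17 nucleotide metabolism genes, 28 replication genes and 17 mitosis genes. Control 3 correlated more with iECKO 2 (0.1) than with iECKO 3. All other pairs of unlike number correlated negatively, from -0.208 to -0.0263. These values do not settle whether the numbers pair the libraries. The depth of the libraries is unknown, which limits Dctd most, the gene with the lowest values.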
